A study of Mus musculus with 18 samples.

Results

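The 7 genes Sox9, Onecut1, Hes1, Cftr, Pkhd1, Spp1 and Epcam are used as identity genes of pancreatic duct cells, the epithelium that lines the channels draining the exocrine pancreas. They were chosen by gene symbol from 55536 genes counted by RNA sequencing in isolated mouse pancreatic islets, in which duct cells are a minor passenger. The islets came from 17-week-old male mice of the NOD.CB17-Prkdcscid strain (NOD.SCID background), so every group carried the Prkdc scid mutation, which leaves mice without mature T and B lymphocytes. The mice differed in Slc30a8, the gene of the zinc transporter ZnT8 of insulin granules: ZnT8-/- (KO), ZnT8+/- (Het) or wild type (WT). Islets of each genotype were cultured for 24 h with TNF-alpha at 100 pg/ml, IL-1beta at 150 pg/ml and IFN-gamma at 10 pg/ml, or in medium alone. There were 3 libraries in each of the 6 groups and 18 in all. The labels name 3 mice but do not tie libraries to mice; the spread that the p-values rest on is that of these libraries and may be partly technical. How the Slc30a8 allele was made is not stated there.

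Duct cells secrete bicarbonate-rich fluid through the CFTR chloride channel and sense flow with a primary cilium. Their identity rests on a small set of transcription factors: SOX9, which marks the embryonic progenitor domain and stays on in adult ducts; ONECUT1 (HNF6), which acts upstream of ciliary genes in the mouse pancreas; and HES1, the repressor induced by Notch signalling. PKHD1 encodes fibrocystin, a ciliary membrane protein lost in autosomal recessive polycystic kidney disease. SPP1 encodes osteopontin, a secreted glycoprotein that binds integrins and CD44, and EPCAM is an adhesion molecule of the lateral membrane of epithelial cells. Of these genes, Spp1 is also a macrophage gene, and Hes1 and Epcam are expressed in other islet cells.

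The promoters of the 3 members that changed with cytokines are shown as the sequence just upstream of each responding gene. They are the 250 bases before each start in RefSeq (GRCm38.p6), on the gene's strand, with matches to 6 motifs in capitals; RefSeq's table held 5 of the 7 members. The Pkhd1 stretch lies at chr1:20618058-20618307 (minus strand), that of Spp1 at chr5:104434861-104435110 (plus strand) and that of Epcam at chr17:87635729-87635978 (plus strand).
Pkhd1: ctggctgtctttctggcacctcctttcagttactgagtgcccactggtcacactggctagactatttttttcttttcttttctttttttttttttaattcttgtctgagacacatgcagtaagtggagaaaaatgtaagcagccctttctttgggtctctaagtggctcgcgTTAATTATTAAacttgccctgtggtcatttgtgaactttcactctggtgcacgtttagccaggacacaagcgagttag
Spp1: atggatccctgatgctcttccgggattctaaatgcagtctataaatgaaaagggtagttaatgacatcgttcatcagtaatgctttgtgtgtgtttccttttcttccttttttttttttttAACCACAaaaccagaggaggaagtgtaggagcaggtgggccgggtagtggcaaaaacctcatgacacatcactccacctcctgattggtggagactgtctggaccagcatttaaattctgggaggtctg
Epcam: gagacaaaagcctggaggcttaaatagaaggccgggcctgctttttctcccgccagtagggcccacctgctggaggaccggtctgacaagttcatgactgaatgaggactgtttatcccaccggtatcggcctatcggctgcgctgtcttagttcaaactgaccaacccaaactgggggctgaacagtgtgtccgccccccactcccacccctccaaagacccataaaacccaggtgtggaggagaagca

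The motifs searched on both strands were HNF1 (TTAAT, any base, ATTAA), ONECUT (ATTGAT), RBPJ of the Notch pathway (TGGGAA), RUNX (AACCACA), AP-1 (TGANTCA) and NF-kB (GGG, any 2 bases, TTTCC), and the matches found in the members overlapped no other motif. Pkhd1 held an HNF1 match that began 78 bases before the start. That word was present in 0.116% of 32851 promoters of the same length. Spp1 held a RUNX match at 129 bases before the start, a word present in 4.4% of promoters. The Epcam stretch, like those of Cftr and Onecut1, held none of the 6 words. The shares of all promoters were 6.72% for ONECUT, 21.6% for RBPJ, 6.75% for AP-1 and 1.41% for NF-kB. A match is a description of the letters and does not show binding.

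In GENCODE M21 on GRCm38 all 7 are protein-coding genes. On the plus strand Sox9 spans chr11:112782224-112787760, Onecut1 chr9:74861921-74891781, Hes1 chr16:30064384-30067796 and Cftr chr6:18170687-18322768. Spp1 (chr5:104435118-104441050) and Epcam (chr17:87635979-87651129) lie on the plus strand too, and Pkhd1 lies on the minus strand at chr1:20057779-20618064.

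Every member was detected in all 18 libraries, whose totals ran from 22990164 to 29946680 counts, and all 7 were among the 17590 genes that passed the low-count filter. Levels are given as CPM, counts scaled to a common library size after TMM normalisation. Divided by exonic length to compare genes, Spp1 was the most abundant member, with means of 579 to 2529 CPM per kb over the 6 groups, and Epcam followed with 116 to 222 CPM per kb. Hes1 and Sox9 averaged 8.39 to 13.2 and 3.79 to 10.6 CPM per kb, and these ranges overlap. Cftr and Pkhd1 lay lower, at 0.738 to 2.26 and 0.391 to 1.852 CPM per kb, also overlapping. Onecut1 was the rarest, with 7 to 58 reads per library and 0.108 to 0.364 CPM per kb.

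As a check of the labels, Slc30a8 in KO against WT islets had a log2 fold change of -1.23 ± 0.19 when untreated (SE, edgeR quasi-likelihood test, Benjamini-Hochberg adjusted p = 0.00495) and of -0.96 ± 0.20 with cytokines (adjusted p = 0.0148). Het against WT islets had -0.06 ± 0.19 untreated and -0.02 ± 0.19 with cytokines (edgeR, adjusted p = 0.966 and 0.987), so the check does not tell Het from WT labels. KO against Het islets had -1.17 ± 0.19 and -0.94 ± 0.20 and was not called (edgeR, adjusted p = 0.112 and 0.340). The KO libraries held 518 to 1377 reads of Slc30a8, and reads outside a deleted part would not test the genotype. As a check of the tissue, 12 beta cell genes took 14.5% to 22.4% of the counts, and 30 wider duct genes (keratins, claudins, mucin, secretin receptor and others) took 0.434% to 1.75%. Of those 30, 29 were tested and only Kcnj16 was missing from some libraries. In bulk islets, fewer duct cells and less RNA per duct cell cannot be told apart. Cytokine-treated KO replicate 2 and untreated Het replicate 1 were the 2 libraries farthest below their groups in Sox9, and that Het library had the lowest value of its group for all 7 members. Results that depend on them are given with and without them. The replicate numbers are those of the sample descriptions; the deposited metadata table numbers the Het pair called replicate 1 here as 3.

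Sox9 had 17.98, 6.59 and 28.8 CPM in cytokine-treated KO islets, against 8.11, 16.4 and 22.5 CPM in untreated KO islets. In Het islets it had 30.8, 40.0 and 22.5 CPM with cytokines, against 14.0, 49.4 and 41.5 CPM without. In WT islets it had 54.5, 45.2 and 31.2 CPM with cytokines, against 25.4, 38.3 and 23.8 CPM without. Treated and untreated libraries overlapped in each genotype, and the lowest 2 values of the series were in KO libraries.

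Onecut1 had 0.494, 0.403 and 0.806 CPM in cytokine-treated KO islets, against 0.265, 0.608 and 0.459 CPM in untreated KO islets. It had 1.94, 0.911 and 1.32 CPM in cytokine-treated Het islets, against 0.546, 1.54 and 2.01 CPM in untreated Het islets. Its WT values were 2.02, 1.33 and 1.14 CPM with cytokines and 1.56, 1.83 and 0.916 CPM without. All 6 KO libraries lay below all 6 WT libraries. Onecut1 shares 52.8% of its exonic length with the lincRNA Gm20649 on the same strand, which had 0 reads in all libraries. How reads in shared stretches were assigned, and whether strand was used, the labels and notes do not state.

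Hes1, the Notch-induced repressor, had 16.1, 14.8 and 20.5 CPM in cytokine-treated KO islets and 16.9, 17.7 and 21.1 CPM in untreated KO islets. Het islets had 19.3, 24.2 and 17.6 CPM with cytokines and 18.2, 31.4 and 27.8 CPM without. WT islets had 28.9, 27.0 and 24.9 CPM with cytokines and 22.98, 28.2 and 24.2 CPM without. The KO values lay below the WT values in both treatments, without overlap.

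Cftr had 4.55, 1.52 and 11.3 CPM in cytokine-treated KO islets, against 2.77, 5.52 and 8.91 CPM in untreated KO islets. Het islets had 7.78, 10.6 and 4.93 CPM with cytokines, against 3.96, 27.5 and 21.1 CPM without. WT islets had 15.4, 10.5 and 9.01 CPM with cytokines, against 9.17, 11.7 and 6.38 CPM without. Treated and untreated libraries overlapped in each genotype. The SD of the channel gene in CPM was largest in untreated Het islets, at 17.5 ± 12.2 CPM (mean ± SD, n = 3). Relative to the mean the spread was larger in cytokine-treated KO islets, with a coefficient of variation of 86.4% against 69.4% in untreated Het islets.

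Pkhd1 had 6.45, 3.68 and 6.68 CPM in cytokine-treated KO islets, against 10.2, 16.4 and 15.0 CPM in untreated KO islets. Het islets had 11.03, 9.91 and 9.29 CPM with cytokines, against 14.5, 30.7 and 34.3 CPM without. WT islets had 13.7, 9.01 and 8.54 CPM with cytokines, against 19.4, 25.3 and 15.5 CPM without. In each genotype, all 3 treated libraries lay below all 3 untreated ones.

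Spp1 had 2528, 2182 and 3138 CPM in cytokine-treated KO islets, against 568, 1113 and 1180 CPM in untreated KO islets. Het islets had 2976, 3619 and 2617 CPM with cytokines, against 872, 2830 and 3937 CPM without. WT islets had 5748, 4092 and 2664 CPM with cytokines, against 1999, 1542 and 874 CPM without. Treated libraries lay above untreated ones without overlap in KO and WT islets, and the groups overlapped in Het islets.

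Epcam had 392.4, 331 and 399 CPM in cytokine-treated KO islets, against 243, 256 and 264 CPM in untreated KO islets. Het islets had 393, 471 and 385 CPM with cytokines, against 268, 406 and 406 CPM without. WT islets had 529, 497 and 437 CPM with cytokines, against 374, 330 and 322 CPM without. The pattern of overlap matched that of Spp1, with separate groups in KO and WT islets and overlapping groups in Het islets.

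**Figure D1:**
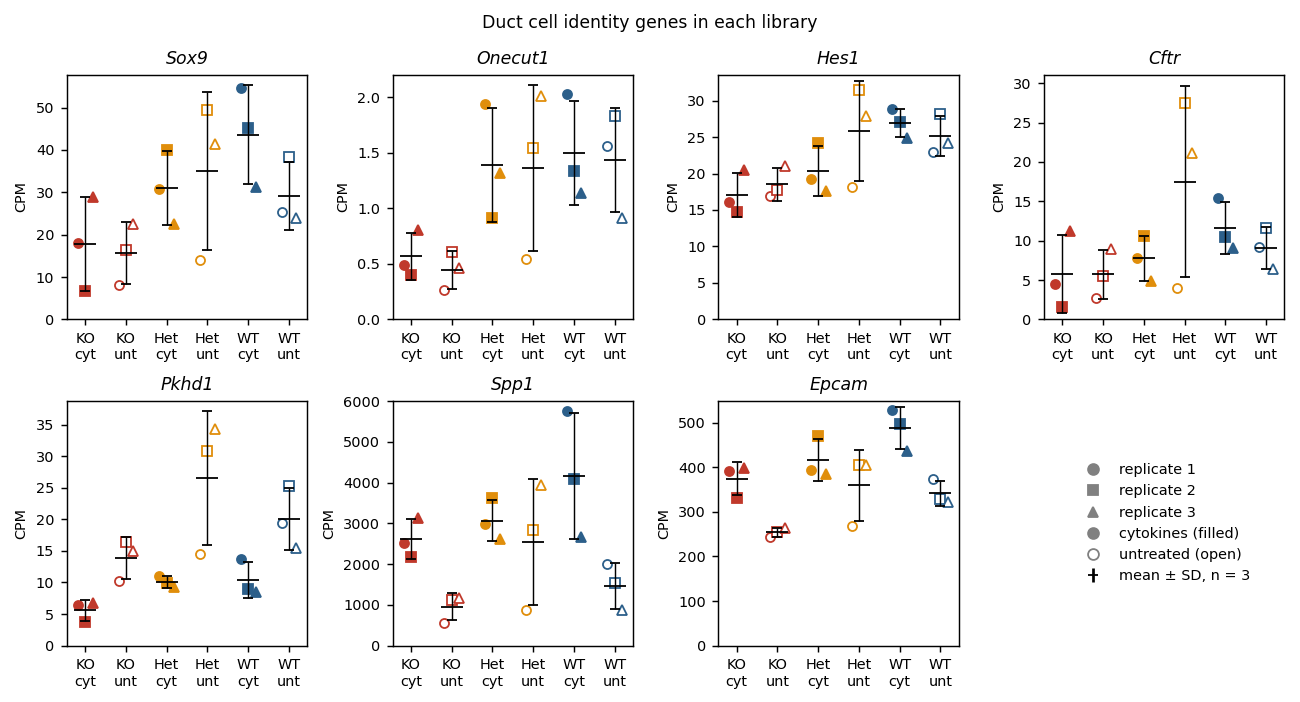
CPM (y axis, linear, from 0) of the 7 duct genes in each of the 18 libraries; the x axis gives genotype and treatment (cyt, cytokines; unt, untreated), symbols mark replicates, filled symbols are cytokine-treated, and bars show the mean ± SD of 3 libraries. Pkhd1 is lower with cytokines in all 3 genotypes, Spp1 and Epcam are higher in KO and WT islets, and KO values of Onecut1 lie below WT values.

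Cytokines changed 3 of the 7 duct genes and in opposite directions. Pkhd1 fell in all 3 genotypes, whereas Spp1 and Epcam rose in KO and WT islets. The transcription factors Sox9, Onecut1 and Hes1 and the channel gene Cftr did not pass the test in any genotype. Thus 2 members rose and 1 fell in KO islets, 1 fell in Het islets, and 2 rose and 1 fell in WT islets. Over all genes tested, edgeR called 31.3% in KO, 24.5% in Het and 25.7% in WT islets, and the members' counts of 3, 1 and 3 of 7 are read as no more than that background. The median log2 fold change of the members was 0.18, -0.17 and 0.36 in KO, Het and WT islets, against -0.03, -0.03 and -0.01 over all genes. The members whose treated and untreated libraries did not overlap were those called, and 42.6%, 35.1% and 46.5% of all genes were separated in that way in KO, Het and WT islets.

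Pkhd1 fell 2.46-fold in KO islets, a log2 fold change of -1.299 ± 0.334 (SE; edgeR, adjusted p = 0.00877), 2.63-fold in Het islets, -1.40 ± 0.32 (adjusted p = 0.00552), and 1.93-fold in WT islets, -0.95 ± 0.32 (adjusted p = 0.0436). The mean level of this fibrocystin gene was 5.60 ± 1.67 CPM with cytokines and 13.9 ± 3.29 CPM without in KO islets (SD, n = 3 each). In Het islets the means were 10.1 ± 0.883 CPM with cytokines and 26.5 ± 10.6 CPM without, and in WT islets 10.4 ± 2.84 CPM with and 20.0 ± 4.94 CPM without. The call in WT islets was lost without the low-count filter (adjusted p = 0.112, edgeR) and when any of 4 WT libraries was left out, with edgeR's adjusted p between 0.0803 and 0.161. The calls in KO and Het islets held under each alternative that was run. Some markers of stellate cells and fibroblasts, such as collagens, were lower with treatment too. Of 15 such genes, edgeR called 3, 9 and 4 lower and 0 higher in KO, Het and WT islets. Over all genes 31.3%, 24.5% and 25.7% were called, shares that pool both directions and so are not a like measure for calls in 1 direction. No result is drawn from the KO and WT counts. Estimates were positive for 3, 1 and 4 of the 15. Dcn, for example, averaged 100 CPM with cytokines and 55.0 CPM without in KO islets. The summed level of the 15 was 588 to 1981 CPM with cytokines against 1604 to 4008 CPM without in KO islets. In Het islets the sum was 570 to 1297 CPM with cytokines against 1082 to 3121 CPM without, and in WT islets 841 to 1500 CPM with against 1659 to 1900 CPM without. Their part in the result was not tested.

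Spp1 rose 2.74-fold in KO islets, by 1.46 ± 0.48 on the log2 scale (SE; edgeR, adjusted p = 0.0350), and 2.83-fold in WT islets, by 1.502 ± 0.483 (adjusted p = 0.0357). In Het islets the log2 fold change was 0.27 ± 0.47 (edgeR, adjusted p = 0.737). Without untreated Het replicate 1 it was -0.14. Both calls were lost without the low-count filter (edgeR, adjusted p = 0.0782 in KO and 0.0811 in WT islets), and the WT call when only the groups compared were fitted (adjusted p = 0.0786). The KO call was lost in 5 of 6 fits that left out 1 KO library, with edgeR's adjusted p up to 0.116. The WT call was lost in 4 of the 6 such fits, with edgeR's adjusted p up to 0.132. Macrophage genes, which include none of the members but mark another source of Spp1 RNA, were set beside this result. Of 15 such genes edgeR called 0 higher in any genotype, with 1 lower in KO and 1 lower in Het islets. Estimates were positive for 2, 4 and 13 of the 15 in KO, Het and WT islets, with median log2 fold changes of -0.58, -0.15 and 0.31. At an unadjusted p under 0.05 there were 3, 1 and 2 in KO, Het and WT islets in either direction, against 7267, 6169 and 6460 of all 17590 genes. DESeq2 called 1, 1 and 0 of the 15. Their summed level was 163 to 186 CPM with cytokines and 159 to 440 CPM without in KO islets. It was 139 to 205 CPM with and 127 to 216 CPM without in Het islets, and 160 to 196 CPM with and 142 to 161 CPM without in WT islets. The part of macrophages in the Spp1 values was not tested.

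Epcam rose 1.47-fold in KO islets, by 0.56 ± 0.14 on the log2 scale (SE; edgeR, adjusted p = 0.00579), and 1.43-fold in WT islets, by 0.51 ± 0.14 (adjusted p = 0.0122). In Het islets the log2 fold change was 0.21 ± 0.14 (edgeR, adjusted p = 0.300). The KO call held under each alternative that was run. The WT call was lost without WT cytokine replicate 1 (edgeR, adjusted p = 0.0542) or WT untreated replicate 3 (adjusted p = 0.0517).

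For the other 4 members the intervals were wide. Sox9 had log2 fold changes of 0.18 ± 0.54, -0.17 ± 0.52 and 0.58 ± 0.52 in KO, Het and WT islets (SE). Cftr had 0.02 ± 0.71, -1.17 ± 0.69 and 0.36 ± 0.69, and Onecut1 had 0.36 ± 0.52, 0.02 ± 0.42 and 0.06 ± 0.43, in the same order of genotypes. Hes1 was the best measured, at -0.12 ± 0.18, -0.34 ± 0.18 and 0.10 ± 0.18, with an interval of 2 SE in KO islets that runs from -0.48 to 0.25. Without untreated Het replicate 1 and KO cytokine replicate 2, the Het estimates were -1.64 for Cftr and -0.53 for Hes1. These 2 libraries were singled out after the values were seen and for low Sox9. That Het library was the lowest of its group in all 7 members, so leaving it out raises the untreated mean by construction, and no support is drawn from the larger estimates. In the fits that left out each library in turn, the fit without it called Hes1 lower in Het islets (-0.54; edgeR, adjusted p = 0.0170).

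**Figure D2:**
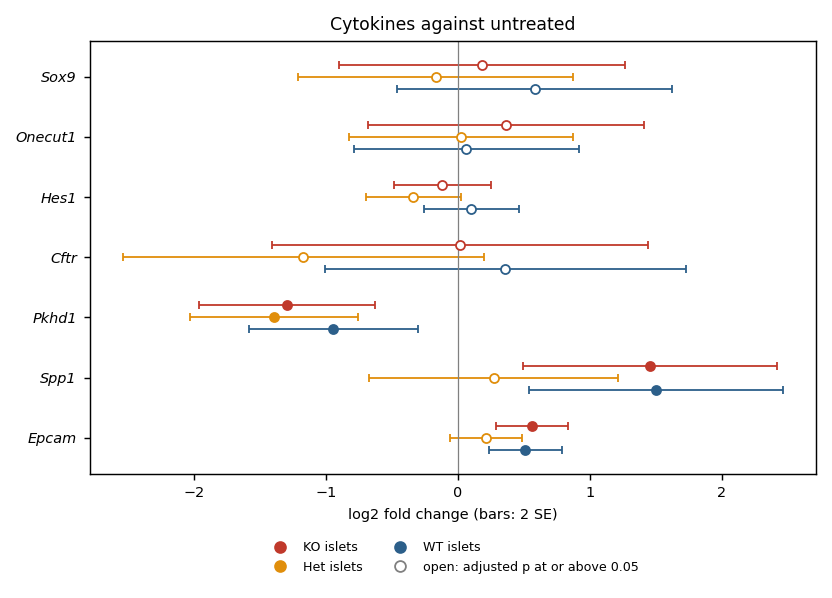
Log2 fold changes of cytokine-treated over untreated islets (x axis) for the 7 duct genes in KO, Het and WT islets; bars span 2 SE on each side and filled points have an adjusted p under 0.05. Pkhd1 lies left of 0 in all 3 genotypes, with -1.40 in Het islets, and Spp1 and Epcam lie right of 0 with filled points in KO and WT islets.

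No member passed the test of a difference in response between genotypes. For the response in KO against WT, the differences of the log2 fold changes ran from -0.40 for Sox9 to 0.30 for Onecut1, with 0 members called by edgeR or DESeq2 (which gave no adjusted p for Onecut1) and 0 at an unadjusted p under 0.05. Over all genes, edgeR called 0.0114%, DESeq2 called 54 and 1183 had an unadjusted p under 0.05. For the response in Het against WT, all 7 differences were negative, from -1.53 ± 0.97 for Cftr to -0.04 ± 0.60 for Onecut1 (SE). Spp1 differed by -1.23 ± 0.67, and again 0 members were called by edgeR or DESeq2, or reached an unadjusted p under 0.05. Of all genes 0% were called there by edgeR, 841 had an unadjusted p under 0.05, and DESeq2 called 0. The smaller Spp1 estimate in Het islets was therefore not shown to differ from WT.

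Members were also set against Sox9 in the same library, a comparison added after the values were seen, which asks whether a member moved apart from a transcription factor of duct identity. The difference between a member's and Sox9's log2 CPM was compared between treated and untreated libraries within genotypes, by an exact permutation test over 8000 relabellings, for 6 members. Pkhd1 relative to Sox9 averaged -1.46 ± 0.63 with cytokines and -0.09 ± 0.46 without in KO islets (SD, n = 3 each). It averaged -1.58 ± 0.38 with and -0.30 ± 0.37 without in Het islets, and -2.06 ± 0.24 with and -0.54 ± 0.13 without in WT islets. The groups did not overlap in any genotype. The mean difference was -1.39, with a two-sided exact permutation p = 0.00025 (Benjamini-Hochberg adjusted over the 6 members, p = 0.0015). That is the smallest p that these relabellings can give. They treat the libraries of a genotype as unpaired. If same-numbered treated and untreated libraries share animals, which the labels do not say, the p-values relative to Sox9 of all 6 members may not hold.

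Spp1 relative to Sox9 averaged 7.42 ± 0.83 with cytokines and 5.97 ± 0.23 without in KO islets, 6.65 ± 0.19 with and 6.12 ± 0.39 without in Het islets, and 6.54 ± 0.16 with and 5.61 ± 0.60 without in WT islets (SD, n = 3 each, log2 differences). Only the Het groups overlapped. The mean difference was 0.97 (exact permutation p = 5e-04, adjusted p = 0.0015). Cftr, which tracked Sox9 closely, was lower relative to it by 0.45 on the log2 scale (mean difference -0.45, exact permutation, adjusted p = 0.017), with separate groups in Het islets only. That adjusted p was at most 0.051 when 1 library was left out. Onecut1, Epcam and Hes1 relative to Sox9 had mean differences of -0.03, 0.22 and -0.32 (exact permutation, adjusted p = 0.897, 0.499 and 0.283).

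**Figure D3:**
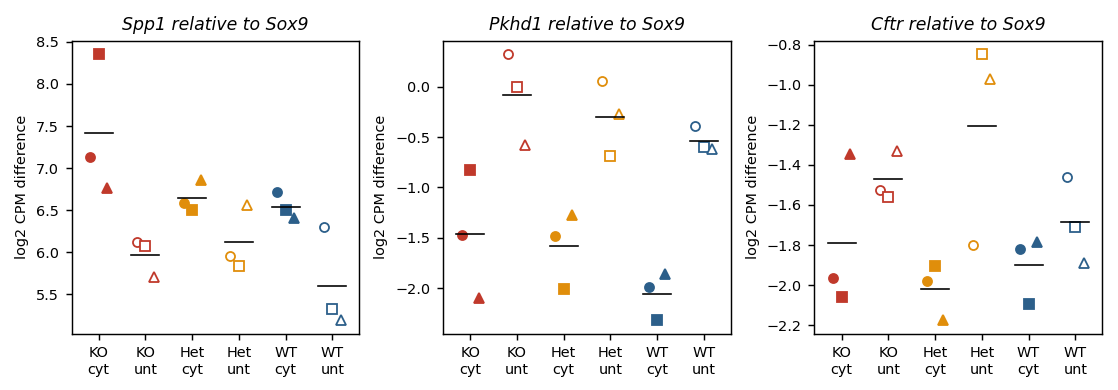
Log2 CPM of Spp1, Pkhd1 and Cftr minus that of Sox9 in the same library (y axis) by genotype and treatment (x axis; cyt, cytokines; unt, untreated); circles, squares and triangles are replicates 1, 2 and 3 and lines are group means. Pkhd1 is lower relative to Sox9 with cytokines in each genotype, by 1.28 to 1.52, and Spp1 is higher, by 0.53 to 1.45.

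Between genotypes, the point estimates of all 7 duct genes lay lower in KO islets than in WT in both treatments, but none passed edgeR's test. The median log2 fold change of the members in KO against WT was -0.63 untreated and -0.88 with cytokines, against 0.00 and 0.00 over all genes. edgeR called 2.94% of all genes untreated and 5.33% with cytokines. At an unadjusted p under 0.05 there were 3 of 7 members untreated and 5 of 7 with cytokines, against 3216 and 4230 of all 17590 genes. DESeq2 called 2 members in each, against 919 and 1561 of all genes: Onecut1 and Epcam untreated, and Hes1 and Pkhd1 with cytokines. In 4 of 7 members untreated and 5 of 7 with cytokines, all KO libraries lay below all WT libraries, against 14.7% and 16% of all genes.

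Onecut1 averaged 0.444 ± 0.172 CPM in untreated KO islets and 1.43 ± 0.467 CPM in untreated WT islets (SD, n = 3 each). Its log2 fold change of -1.68 ± 0.48 was the largest of the set and had an adjusted p of 0.0703 by edgeR and 0.0251 by DESeq2. With cytokines it averaged 0.568 ± 0.211 CPM in KO islets and 1.498 ± 0.466 CPM in WT islets, a log2 fold change of -1.38 ± 0.47 (adjusted p = 0.0923 by edgeR). Hes1 averaged 17.1 ± 2.98 CPM in KO islets and 26.9 ± 1.96 CPM in WT islets with cytokines, a log2 fold change of -0.66 ± 0.18 (adjusted p = 0.0509 by edgeR, 0.0117 by DESeq2). Untreated, Hes1 had -0.44 ± 0.18 (adjusted p = 0.219 by edgeR).

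Sox9 averaged 15.7 ± 7.23 CPM in KO islets and 29.2 ± 7.95 CPM in WT islets untreated, and 17.8 ± 11.1 CPM in KO islets and 43.6 ± 11.8 CPM in WT islets with cytokines (SD, n = 3 each). Its log2 fold changes were -0.89 ± 0.54 and -1.29 ± 0.54 (adjusted p = 0.413 and 0.164 by edgeR). Cftr had -0.65 ± 0.70 untreated and -0.996 ± 0.702 with cytokines, Spp1 had -0.63 ± 0.47 and -0.67 ± 0.47, and Pkhd1 had -0.53 ± 0.31 and -0.88 ± 0.34. Epcam, the most precisely measured member, had -0.43 ± 0.14 untreated and -0.38 ± 0.14 with cytokines (adjusted p = 0.109 and 0.112 by edgeR).

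Markers of another exocrine cell type moved in the same comparison. Of 29 acinar enzyme and transcription factor genes tested, 26 were lower in KO islets than in WT untreated and 27 with cytokines, with median log2 fold changes of -2.23 and -2.71. Their summed level was 929 to 2098 CPM in cytokine-treated KO islets and 1870 to 2910 CPM in untreated KO islets. It was 3245 to 5027 CPM with cytokines and 3369 to 5107 CPM without in Het islets, and 6520 to 12420 CPM with and 9648 to 9749 CPM without in WT islets. Of 13 endothelial genes, edgeR called 3 lower in KO islets untreated and 4 with cytokines, where it called 2.94% and 5.33% of all genes. Estimates were negative for 12 and 13 of the 13 (medians -0.69 and -0.88). At an unadjusted p under 0.05 there were 10 and 12, and DESeq2 called 6 and 9. Of 15 macrophage genes, 14 had positive log2 fold changes untreated (median 1.04), where edgeR called 0, DESeq2 called 4 and 9 had an unadjusted p under 0.05. Their summed untreated level was 161, 159.1 and 440.4 CPM in KO replicates 1, 2 and 3, and 160.5, 142.2 and 148.5 CPM in WT islets. The high KO sum was thus that of 1 library. With cytokines 6 of the 15 were positive (median -0.11). Of 12 beta cell genes, 11 had positive estimates in each treatment (medians 0.32 and 0.34); edgeR called Slc30a8 lower in both and G6pc2 higher with cytokines. All 8 alpha cell genes had positive estimates (medians 0.36 and 0.31), with 1 called higher untreated and 0 with cytokines by edgeR, where DESeq2 called 1 and 5 had an unadjusted p under 0.05. The part of these cells in the duct gene values was not tested.

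Het islets were compared with both other genotypes. Untreated, 6 of 7 members had higher point estimates in Het than in WT islets (median 0.26), and with cytokines all 7 had lower ones (median -0.40). edgeR called 0 members in either comparison, and 0 untreated and 1 with cytokines had an unadjusted p under 0.05. DESeq2 called 0 of 7 with cytokines, and neither Spp1 nor Epcam untreated, where it gave the other 5 members no adjusted p. Of all genes edgeR called 0.00569% untreated and 0% with cytokines. Untreated, 1226 genes had an unadjusted p under 0.05 and DESeq2 called 48. With cytokines 1236 genes had an unadjusted p under 0.05 there and DESeq2 called 51. In KO against Het islets all 7 estimates were negative in both treatments, with medians of -1.15 untreated and -0.42 with cytokines. These comparisons share libraries with those against WT. Untreated, 0 members were called by edgeR, 1 by DESeq2 (Epcam, -0.50, adjusted p = 0.025), and 6 had an unadjusted p under 0.05. Of all genes edgeR called 0%, with 2563 at an unadjusted p under 0.05 and 308 called by DESeq2. With cytokines edgeR called 0 members and 0.00569% of genes, DESeq2 called 0 members (it gave no adjusted p for Onecut1), and 2 members had an unadjusted p under 0.05. Of all genes 1463 had such a p and DESeq2 called 56.

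The untreated comparison of KO and Het islets depended on 1 library. In the fits that left out each library in turn, the fit without untreated Het replicate 1 called 5 members lower in KO islets: Spp1, Onecut1, Pkhd1, Epcam and Hes1. That library held the lowest untreated Het value of every member, so leaving it out enlarges every difference by construction, and the calls gained are not evidence of a difference. Without it and KO cytokine replicate 2, the log2 fold changes were -1.53 for Sox9, -2.07 for Cftr, -1.83 for Spp1, -1.99 for Onecut1, -1.23 for Pkhd1, -0.68 for Epcam and -0.67 for Hes1. With all libraries the same estimates were -1.15, -1.60, -1.42, -1.61, -0.93, -0.50 and -0.47.

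**Figure D4:**
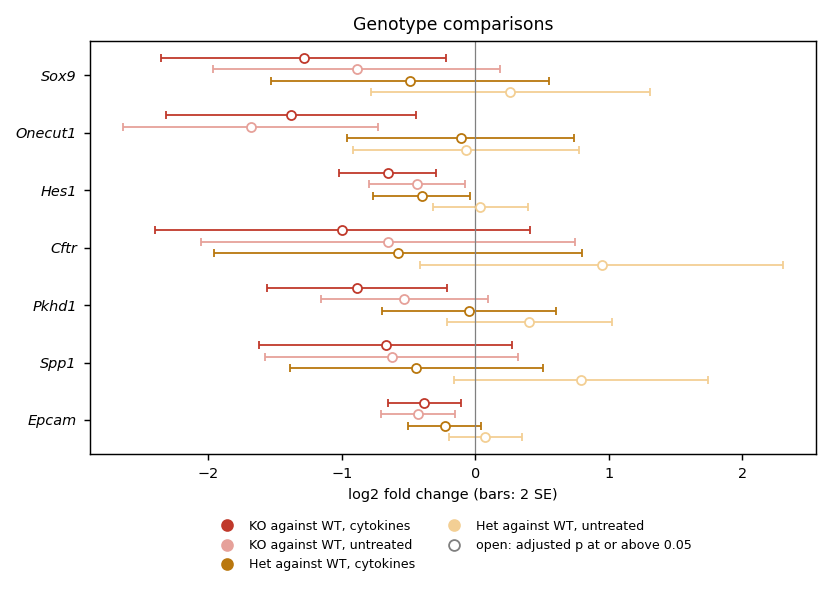
Log2 fold changes of KO and Het over WT islets (x axis), with cytokines and untreated, for the 7 duct genes; bars span 2 SE on each side and all points are open because no adjusted p was under 0.05. KO estimates lie left of 0 for all 7 genes, with -1.68 for Onecut1 untreated, and untreated Het estimates lie right of 0 for 6.

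Within groups the deviations of the duct genes were positively correlated over the libraries, with mixed signs in some. Cytokine-treated Het replicate 2, for example, had 0.40 for Sox9 and -0.51 for Onecut1. For each pair of members, deviations of log2 CPM from the 6 group means were correlated over the 18 libraries. The p-values came from all 46656 rearrangements of libraries within the groups of one member (exact permutation, 21 pairs, Benjamini-Hochberg). The rearrangements treat the 6 groups as independent. If same-numbered treated and untreated libraries share animals, which the labels do not say, these p-values and those for the cell type lists may be too small. Sox9 and Cftr were the tightest pair, with Pearson r = 0.98 and Spearman rho = 0.98 (exact permutation, adjusted p = 0.000225 for each), and r = 0.96 without the 2 libraries of most extreme Sox9 deviation. Onecut1 and Hes1 were the loosest, at r = 0.58 and rho = 0.48 (exact permutation, adjusted p = 0.0963 and 0.126), and Onecut1 and Epcam did not pass either, at r = 0.62 and rho = 0.52 (exact permutation, adjusted p = 0.0801 and 0.0998). Over all pairs r ran from 0.58 to 0.98 with a median of 0.81, and from 0.33 to 0.96 without 2 libraries. Untreated Het replicate 1 deviated by -1.72 in Cftr, -1.29 in Spp1 and -1.13 in Sox9, and KO cytokine replicate 2 by -1.45 in Cftr and -1.18 in Sox9.

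The same deviations were set against those of the mean log2 CPM of 9 cell type lists, without the members (63 relations). The wider duct list followed each member, with r from 0.82 to 0.93 and rho from 0.76 to 0.90 (exact permutation, adjusted p from 0.00405 to 0.0104 for r), and from 0.67 to 0.88 without the 2 libraries of most extreme list level. The acinar list had r from -0.22 to 0.05 and rho from -0.25 to 0.14 (exact permutation, adjusted p from 0.516 to 0.972 for r). Stellate and fibroblast genes had r from 0.54 to 0.91, endothelial genes from 0.56 to 0.81 and macrophage genes from 0.32 to 0.74 (exact permutation, highest adjusted p = 0.119, 0.0286 and 0.464). Without 2 libraries these ranges were 0.51 to 0.90, 0.54 to 0.77 and 0.12 to 0.68. Hes1 followed the stellate list more closely than the wider duct list (r = 0.91 against 0.82). Without each list's 2 libraries this also held for Cftr (0.88 against 0.86) and Epcam (0.87 against 0.72). The endocrine lists ran the other way, with r from -0.81 to -0.55 for beta, -0.80 to -0.55 for alpha and -0.71 to -0.41 for delta and PP cell genes, and the Schwann cell list had r from -0.47 to -0.25. Their highest adjusted p-values over the members were 0.197, 0.152, 0.0525 and 0.577 (exact permutation). CPM are shares of a library's counts, so the lists are not independent of each other.

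**Figure D5:**
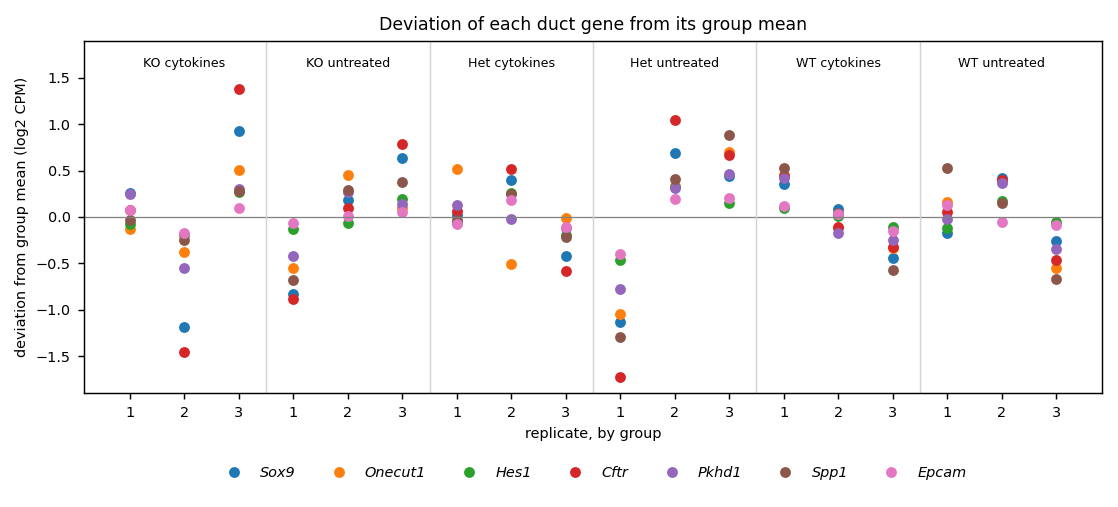
Deviation of each duct gene's log2 CPM from its group mean (y axis) in each library (x axis, replicate number within 6 groups separated by lines); each colour is a gene. All 7 genes are below 0 in untreated Het replicate 1, with -1.72 for Cftr, and in cytokine-treated KO replicate 2, with -1.45 for Cftr.

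The genes whose log2 CPM followed each member most closely over the 18 libraries, among 12283 genes with a mean of at least 2 CPM, are given as a description. For Sox9 they were Smad3 (r = 0.99), Clcf1 and Sestd1, and for Cftr they were Sema5a (r = 0.97), Arl4c and Cdh6. For Spp1 they included Cp (r = 0.97) and Wfdc2, both on the wider duct list. For Onecut1 they were Elovl7 (r = 0.93), Arap2 and Efnb2. For Pkhd1 they were Ugdh (r = 0.94), Ldlrad3 and Sparcl1, for Epcam Ptgr1 (r = 0.98), Itgb1 and Tpm3-rs7, and for Hes1 Actn4 (r = 0.97), Mvb12b and Kif1c. All points share the same libraries, treatment and genotypes.

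The wider duct list held genes that moved in both directions with cytokines. Of 29 genes tested, 7 rose and 1 fell with cytokines in KO, 3 rose and 2 fell in Het and 6 rose and 1 fell in WT islets. These counts are no larger a share than the 31.3%, 24.5% and 25.7% of all genes called in KO, Het and WT islets. Those shares are also the background for the cytokine counts of the lists that follow. Prom1, the apical pentaspan protein prominin 1, rose by 1.02, 0.79 and 0.99 on the log2 scale in KO, Het and WT islets, and the tight junction gene Cldn7 by 0.89, 0.73 and 0.67. Slc5a1, the sodium-glucose cotransporter SGLT1, rose by 2.59, 1.81 and 2.71. Lgals4, a galectin of digestive epithelia, fell by 1.96 in Het islets and had -0.81 and -0.06 in KO and WT islets (edgeR, adjusted p = 0.000283, 0.0635 and 0.917 in Het, KO and WT islets). Its mean was 1.93, 1.47 and 1.72 CPM with cytokines and 3.40, 5.69 and 1.79 CPM without in KO, Het and WT islets. For a difference in response in KO or Het against WT islets, edgeR called 0 of the 29. There 0 and 4 had an unadjusted p under 0.05.

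In KO against WT islets the wider list held 8 genes that were lower untreated and 10 with cytokines, and 0 that were higher, where 2.94% and 5.33% of all genes were called. The duct keratin Krt19 had log2 fold changes of -1.73 ± 0.34 untreated and -2.02 ± 0.35 in cytokine-treated islets (SE; edgeR, adjusted p = 0.0194 and 0.00677). Its mean was 35.2 CPM in untreated KO and 117 CPM in untreated WT islets. The chaperone clusterin (Clu) had log2 fold changes of -1.60 untreated and -1.81 with cytokines, and the mucin Muc1 had -1.39 and -1.22. Krt8, Krt18, Cldn4 and Cdh1 were lower in both treatments, with log2 fold changes from -1.06 to -0.45. Cldn7 was lower untreated only by that threshold (-0.37), and Cd24a (-0.86), Vtcn1 (-1.72) and the secretin receptor gene Sctr (-2.04) with cytokines. Whether these differ between treatments was not tested here. Krt7, another duct keratin, had means of 584 to 646 CPM in the 6 groups and was not called.

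Around Hes1, 22 of 23 genes of the Notch pathway were tested. With cytokines the ligand Dll1 rose by 1.63, 1.32 and 1.28 on the log2 scale in KO, Het and WT islets, while the ligand Jag2 fell by 0.90, 0.81 and 0.84. The receptor Notch3, also expressed in mural cells, fell by 1.41, 1.26 and 1.22, and the fringe glycosyltransferase Rfng fell by 0.41 in KO and 0.25 in WT islets. In all 1 rose and 5 fell in KO, 2 rose and 3 fell in Het, and 1 rose and 4 fell in WT islets, shares below those of all genes. In KO against WT islets the endothelial Notch genes Dll4 (-0.65) and Notch4 (-0.81) were lower untreated, and the receptor Notch1 (-0.38) was lower with cytokines.

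Around Cftr, 12 of 15 genes of ductal ion transport were tested. With cytokines 1 rose and 1 fell in KO islets, 1 rose and 1 fell in Het islets and 2 rose in WT islets, shares below those of all genes. The chloride channel gene Clcn2 fell with cytokines by 0.74 on the log2 scale in KO and 0.48 in Het islets and had -0.08 in WT islets (edgeR, adjusted p = 0.713). For a difference in response in KO or Het against WT islets, edgeR called 0 of the 12. There 1 and 2 had an unadjusted p under 0.05. Slc9a3r1, the scaffold that anchors CFTR at the apical membrane, rose by 0.24 with cytokines in WT islets. With cytokines, Clcn2 (-0.74), Slc9a3r1 (-0.34) and Sctr were lower in KO islets than in WT; 0 of the 12 were called untreated by edgeR or DESeq2, where 4 had an unadjusted p under 0.05.

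Around Pkhd1, 17 genes of polycystic disease and the primary cilium were tested, and 2 rose and 6 fell in KO, 1 rose and 5 fell in Het, and 1 rose and 4 fell in WT islets with cytokines, against 31.3%, 24.5% and 25.7% of all genes called. Pkd1, which encodes polycystin 1, fell by 0.57, 0.39 and 0.36 on the log2 scale in KO, Het and WT islets. The intraflagellar transport gene Ift88 fell by 0.28, 0.30 and 0.46, and Invs (inversin) fell by 0.35 in KO and 0.37 in WT islets. Glis3, a transcription factor of ducts and beta cells, rose by 0.27, 0.32 and 0.34. None of the 17 was called between KO and WT islets in either treatment by edgeR or DESeq2, and 2 had an unadjusted p under 0.05 in each.

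Around Spp1, 10 genes of its receptors were tested, and 5, 3 and 5 rose with cytokines in KO, Het and WT islets with none falling. The integrin subunit Itgav rose by 0.51, 0.55 and 0.60 on the log2 scale, Itgb5 by 0.57, 0.35 and 0.49, and Cd44 by 0.85, 0.58 and 0.98, in KO, Het and WT islets. Itgb1 rose by 0.47 in KO and 0.37 in WT islets. Around Epcam, 15 partner and junction genes were tested and 9, 6 and 9 rose in KO, Het and WT islets. The protease inhibitor Spint1 rose by 1.17, 1.10 and 0.88, the junctional adhesion molecule gene F11r by 1.34, 0.93 and 0.93, and the tetraspanin Cd9 by 1.53, 0.84 and 1.29. In KO against WT islets 7 of the 15 were lower untreated and 5 with cytokines, where 2.94% and 5.33% of all genes were called. The matriptase gene St14 had log2 fold changes of -0.70 untreated and -0.60 with cytokines, Ocln had -0.55 and -0.48, and Ctnnb1 had -0.33 and -0.31. F11r (-0.59) and Spint1 (-0.25) were lower untreated, and Tjp1 (-0.27) with cytokines. Most of these epithelial genes are expressed by endocrine cells as well as by duct cells.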

How the data were processed

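Per the labels' protocols, islets were isolated by enzymatic digestion and a density gradient, rested overnight and then treated, and RNA was sequenced on an Illumina instrument. The submitters' processing notes name FastQC 0.11.7, cutadapt 1.16, STAR 2.5.2a, featureCounts 1.6.2, DESeq2 1.30.0 and GRCm38, without roles or order. Raw counts of reads for each gene, whole numbers, were deposited by the authors and used unchanged; the deposited filtered table of 25253 genes was not used for tests.

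Genes were kept with edgeR 4.0.16's filterByExpr (count minimum 10; 17590 of 55536 genes), normalised by TMM and fitted with robust quasi-likelihood models of 6 group means over 18 libraries (R 4.3.3; 12 residual degrees of freedom; median biological coefficient of variation 0.106). There were 11 comparisons, with Benjamini-Hochberg adjustment over all genes tested and a threshold of 0.05. DESeq2 1.42.0 was an alternative. Log2 CPM used a prior count of 2. The scripts were tested on simulated data. No pair of libraries was near-identical (highest correlation 0.992), and figures were drawn with matplotlib 3.10.9. With 22990164 to 29946680 counts per library, the rarest member, Onecut1, had 7 to 58 counts.

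The members and all lists were chosen with earlier results of these data known. Named beside the members and Slc30a8 were up to 4 genes of smallest p per list among those called in a cytokine comparison, any list gene called between genotypes, and the 3 genes most correlated with each member. Some genes that this rule names are not reported here. Gene models were those of GENCODE M21. Alternatives changed the normalisation, filter, tool, libraries in the fit and replicate block, or left out libraries.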

Additional observations from a re-analysis of the deposited data

How the results depend on the processing

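The number of members called changed as follows. Cytokines in KO islets called 3, and leaving out 1 library gave 2 to 3. Spp1 was not called there without the low-count filter (edgeR, adjusted p = 0.0782) or with a replicate block (edgeR, adjusted p = 0.0526). Cytokines in WT islets called 3 members, 1 without the low-count filter and 1 with a replicate block; leaving out 1 library gave 1 to 2. Cytokines in Het islets called 1, and 3 without the 2 libraries farthest below their group in Sox9 (added after the data were seen); leaving out 1 library gave 1 to 2. KO against WT untreated called 0, 2 by DESeq2 and 1 when only the groups compared were fitted. KO against Het untreated called 0, 1 by DESeq2, 7 without those 2 libraries, and 0 to 5 with 1 library left out. KO against WT with cytokines called 0, 2 by DESeq2, 1 with only the groups compared, 1 without robust estimation (Hes1, edgeR adjusted p = 0.0467), and 0 to 1 with 1 library left out. The cause of these changes was not tested. RLE scaling changed no member's call and moved the median of all genes by 0.0162 on the log2 scale.

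The count over all genes moved by over 1.5 times in these fits. Het cytokines gave 2475 with only the groups compared. KO against WT untreated gave 919 by DESeq2 and 114 to 360 with 1 library left out. KO against WT with cytokines gave 1561 by DESeq2, 592 with only the groups compared, 573 without the 2 libraries and 206 to 1673 with 1 left out. KO against Het untreated gave 308 by DESeq2, 1 without robust estimation, 2262 without the 2 libraries and 0 to 1874 with 1 left out. In the remaining genotype and response comparisons edgeR called 0 to 6 and DESeq2 0 to 56.

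Estimates that changed sign were among those that passed no test. Without the 2 libraries, in cytokine-treated over untreated Het islets Spp1 had -0.13 and Onecut1 -0.35, Onecut1 had 0.32 in Het over WT untreated, and Cftr 0.03 in KO over Het with cytokines. In the KO over WT response, Cftr had 0.088 and Spp1 0.067. Leaving out 1 library gave the following ranges. Under cytokines they were -0.21 to 0.27 for Onecut1 in WT, -0.55 to 0.17 for Sox9, -0.14 to 0.73 for Spp1 and -0.35 to 0.41 for Onecut1 in Het, and -0.32 to 0.57 for Sox9, -0.87 to 0.52 for Cftr and -0.24 to 0.009 for Hes1 in KO. In Het over WT untreated they were -0.055 to 0.64 for Sox9, -0.44 to 0.31 for Onecut1, -0.0045 to 0.25 for Epcam and -0.11 to 0.24 for Hes1, and with cytokines -0.40 to 0.18 for Onecut1 and -0.15 to 0.22 for Pkhd1. Cftr had -1.31 to 0.023 in KO over Het with cytokines. In the KO over WT response they were -1.23 to 0.16 for Cftr, -0.32 to 0.27 for Spp1, -0.013 to 0.59 for Onecut1 and -0.0075 to 0.13 for Epcam, and in the Het over WT response -0.42 to 0.35 for Onecut1. Relative to Sox9, Onecut1 had -0.17 to 0.12.

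Whether replicate numbers pair the libraries was not settled: of 9 same-numbered pairs within genotypes, which also share a number in their titles, deviations correlated at over 0.1 in 6 (r from -0.22 to 0.39), and 7 libraries matched their own number best, a hint from the data. The sources do not say that a number marks the same animal or day. Across genotypes, same-numbered libraries have different title numbers in part, and the metadata table numbers Het replicate 1 as 3, so the block over all genotypes is in doubt. With the replicate block, Spp1 was no longer called in WT (edgeR adjusted p = 0.0562) or KO islets (0.0526), nor Pkhd1 in WT islets (0.0715). With a block within genotype, Pkhd1 in WT islets had an adjusted p of 0.104 and Cftr had -0.12 in KO islets. Depth limits Onecut1 most.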
